A study of Capra hircus with 21 samples.

Results

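The genes described here are the fibroblast growth factor (FGF) and insulin-like growth factor (IGF) systems of the goat, Capra hircus, with the proteins that damp their signals. They are the 64 genes, of 19040 listed, whose symbols name an FGF, an FGF receptor (FGFR), an FGF-binding protein (FGFBP), an IGF, an IGF receptor, an IGF-binding protein (IGFBP), the insulin receptor (INSR), an insulin receptor substrate (IRS), a Sprouty (SPRY) or SPRED protein or a dual-specificity phosphatase (DUSP). The rule uses gene symbols and no expression value. No listed gene carries the symbol FGF3, FGF7, FGF21, FGF22, IRS1, SPRY1, DUSP2 or DUSP9, so these are not described. By role they are 13 secreted FGF ligands, 2 intracellular FGF homologous factors, 5 FGF receptors, 1 FGF-binding protein, 2 IGF ligands, 3 IGF and insulin receptors, 8 IGF-binding proteins, 2 IRS adaptors, 4 SPRY and SPRED proteins, 8 DUSPs directed at MAP kinases and 11 other DUSPs. Another 5 are caught by their spelling and are not ligands or receptors. These are FGFR1OP and FGFR1OP2, found as fusion partners of FGFR1, and the 3 IGF2 mRNA-binding proteins.

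RNA was sequenced from goat oocytes that had matured inside the animal and from embryos that had grown there. The embryos were at the 2-cell, 4-cell, 8-cell and 16-cell stages, or were morulae or blastocysts. Each of the 7 stages has 3 libraries, lettered A to C, and no stage carries a treatment or a genotype. The labels give no breed, age or animal, and not the number of oocytes or embryos in a library. Every stage was set against the one before it, and blastocysts were also set against oocytes.

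FGFs are secreted ligands that bind tyrosine kinase receptors together with heparan sulphate, and the active receptor recruits adaptors that switch on RAS and the ERK kinases. IGF1 and IGF2 act through the IGF1 receptor and the IRS adaptors on AKT and mTOR, while IGF2R removes IGF2 and the IGFBPs hold IGFs away from their receptor or bring them to it. SPRY and SPRED proteins act on the RAS step, and many DUSPs remove phosphate from ERK, p38 or JNK. In mouse blastocysts FGF4 from the inner cell mass directs primitive endoderm and trophectoderm, and in ruminants IGFs and FGF2 of the reproductive tract act on the embryo.

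Levels are given as RPM, reads scaled to the size of the library, obtained by taking the span of the gene (introns included) out of the deposited RPKM values. Neither scale is per transcript length, so levels are compared between stages and not between genes. The 21 libraries had 8.47 to 26.7 M reads in listed genes, and 3 reads corresponded to 0.0450 to 0.125 RPM. This floor covers counting error only. Reads in listed genes were 24.4% and 24.9% of the implied total in blastocysts A and B and 40.5% in blastocyst C. In every other library they were 32.1% (16-cell B) or more. RPM is scaled to that total, and the part of this share in the blastocyst levels was not tested. Libraries C of the 16-cell and morula stages held the most oocyte-marker reads of their stages, the 7 genes summing to 2895 RPM in 16-cell C against 1005 and 839.7 RPM in its stage mates, and to 1176 RPM in morula C against 37.8 and 76.3 RPM. Of the 33 members tested, 23 at the 16-cell stage and 14 at the morula stage had library C nearest to the mean of the preceding stage. An even split over 3 libraries gives 11, and the same count was not made over all genes. Stage markers went with the labels, with 7 oocyte genes (GDF9 and BMP15 among them) summing to 0.398 to 2.33 RPM in blastocysts and 5556 to 12610 RPM in oocytes, and 7 trophectoderm genes to 803 to 1487 RPM in blastocysts and 12.3 to 19.7 RPM in oocytes. Of 10 cumulus and granulosa markers, FSHR, AMH, INHA and LHCGR were at 0 in all oocyte libraries while STAR had 39.0 ± 12.2 RPM (mean ± SD, n = 3 libraries, as everywhere below). A stroma list of 6 genes summed to 1.19 to 3.07 RPM in blastocysts and 110.4 to 150.1 RPM in oocytes, where DCN had 122 ± 19.4 RPM and THY1 no read. TNFAIP6 of the cumulus list had 4.85 ± 2.20 RPM in oocytes and 24.7 ± 14.1 RPM at the 16-cell stage. The 5 oviduct and uterine epithelium genes summed to 32.4 to 38.2 RPM in oocytes and 11.3 to 46.6 RPM in blastocysts. Among them MSX1 had 30.5 ± 2.95 RPM in oocytes and 0.343 ± 0.205 RPM in blastocysts. EPCAM had 4.40 ± 0.482 RPM and 32.4 ± 19.9 RPM there, and PAX8 had no read in oocytes. The 6 leukocyte markers summed to at most 3.65 RPM in any library.

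Of the 64 members, 33 reached 1 RPM in at least 3 libraries and were tested among the 10384 genes that did, on log2(RPM + 1) with limma. A member was called at a Benjamini-Hochberg adjusted p below 0.05 over all of these genes and an absolute log2 fold change of at least 1. Fold changes are on this log2(RPM + 1) scale, which understates the change of low genes. The other 31 members are described by their reads: 27 stayed below 1 RPM in every library and 16 had 3 reads in at most 5 libraries. Libraries of a stage are not said to come from separate animals. The p-values therefore set differences only against the spread between libraries, which may be technical. That spread was pooled for each gene over all stages, so the SE of a gene is the same in every comparison. It may be too small where the stages compared vary more than the others. In RNA from whole embryos, fewer cells of a type and less RNA per cell cannot be told apart.

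Across the 7 stages 31 of the 33 members tested differed by limma's moderated F test, against 92.5% of all genes tested. The 2 that did not pass were DUSP16 (adjusted p = 0.137) and SPRY2 (adjusted p = 0.216). Among those 33, the highest stage mean lay at the 2-cell to 8-cell stages for 17 and at the 16-cell to blastocyst stages for 16, and for none in the oocyte. These peaks are on the RPM scale, and were not counted over all genes or under another scaling. The factors of median-ratio scaling were 0.66 to 0.96 in oocytes and 1.40 to 1.54 at the 2-cell stage, so the oocyte count depends on the scale. Within the split of 17 and 16 members, single libraries could go the other way. SPRY2, with its highest stage mean early, had its highest library in morula C, and DUSP16, with a late one, reached 77.8% of its highest library at 4-cell C.

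**Figure D1:**
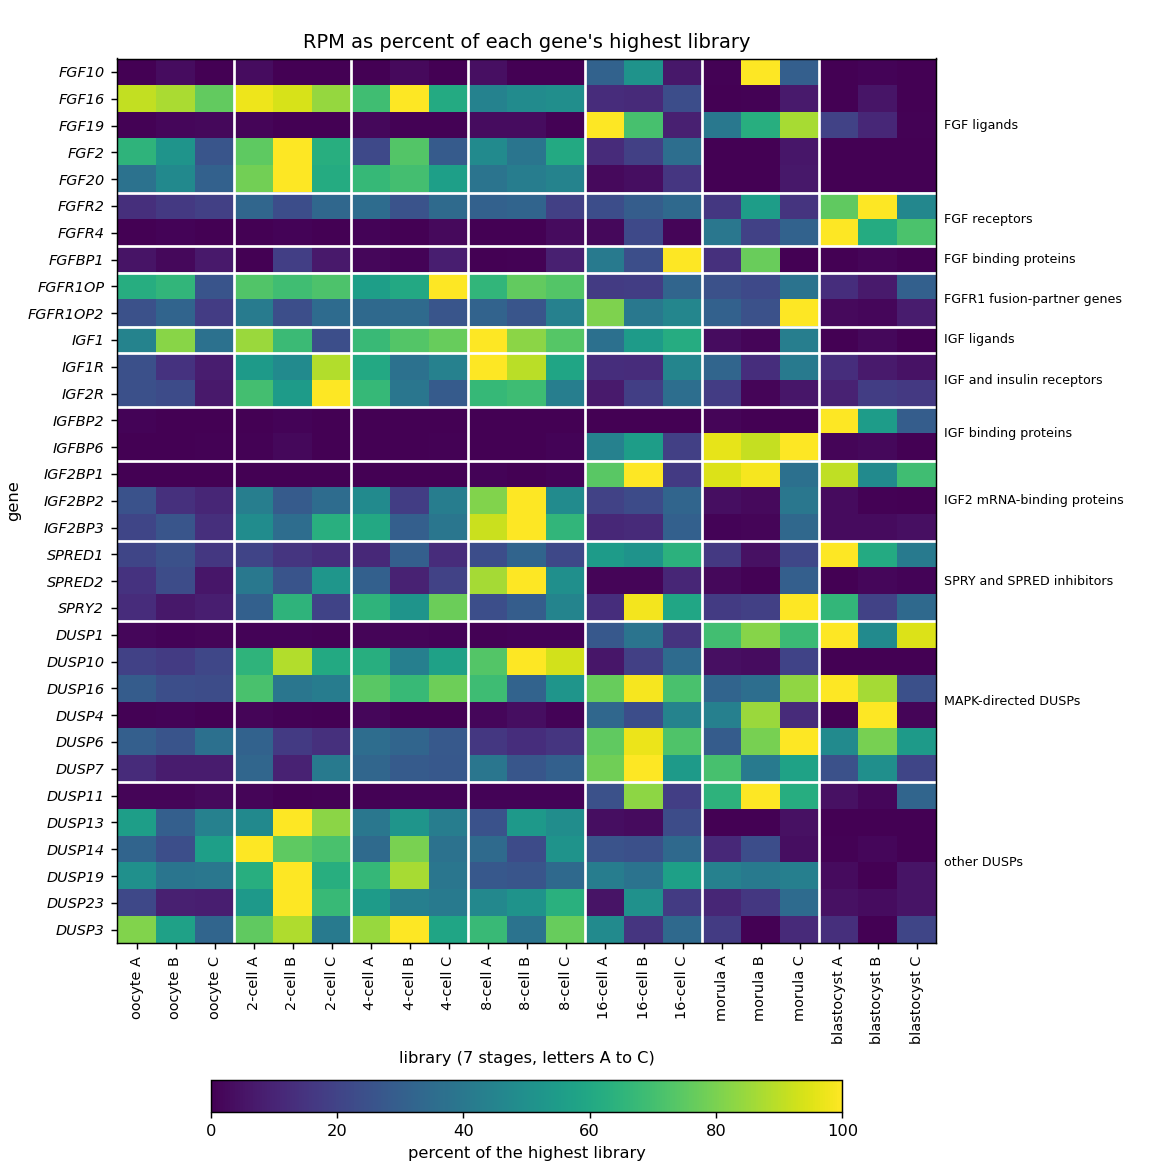
RPM of the 33 members tested (rows, grouped by role) in each of the 21 libraries (columns, 7 stages of 3 libraries lettered A to C), as percent of the gene's highest library. DUSP13 and FGF20 are bright up to the 8-cell columns and IGFBP2 in the blastocyst columns, while SPRY2 and DUSP16 are bright on both sides of the 16-cell stage.

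Calls of members are given by step, beside the share of all genes called. At the 2-cell stage against the oocyte 4 members rose and 0 fell, against 14% and 0.482% of all genes tested. No member was called at the 4-cell stage against the 2-cell stage, where 0% of genes rose and 0% fell, and only FGF2 had an unadjusted p below 0.05 there (326 genes did). No member was called at the 8-cell stage against the 4-cell stage either, against 0.289% of genes higher and 0.0963% lower by limma. SPRED2, DUSP6, IGF2BP2 and DUSP19 had an unadjusted p below 0.05 there, as did 1000 genes. At the 16-cell stage against the 8-cell stage 9 members rose and 7 fell, which is 27.3% and 21.2% of the members tested, against 15.4% and 30.7% of all genes. The median log2 fold change at that step was 0.08 over the members and -0.52 over all genes.

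Between the morula and the 16-cell stage 1 member rose and 2 fell, against 9.44% and 7.59% of all genes. That count of 3 was 1 without 16-cell C, 1 without morula A and 6 without morula C. In blastocysts against morulae 2 members rose and 7 fell, against 7.74% and 28.1% of all genes. In blastocysts against oocytes 6 rose and 11 fell, against 20.8% and 36.6%. The median log2 fold changes of members and of all genes were -0.53 and -0.50 at the blastocyst step, and -0.27 and -0.44 from oocyte to blastocyst. The 4 rises at the 2-cell stage were 2 without 2-cell C and 0 under median-ratio scaling or quantile normalization. Under those scalings 184 and 177 of all 10384 genes rose at that step.

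**Figure D2:**
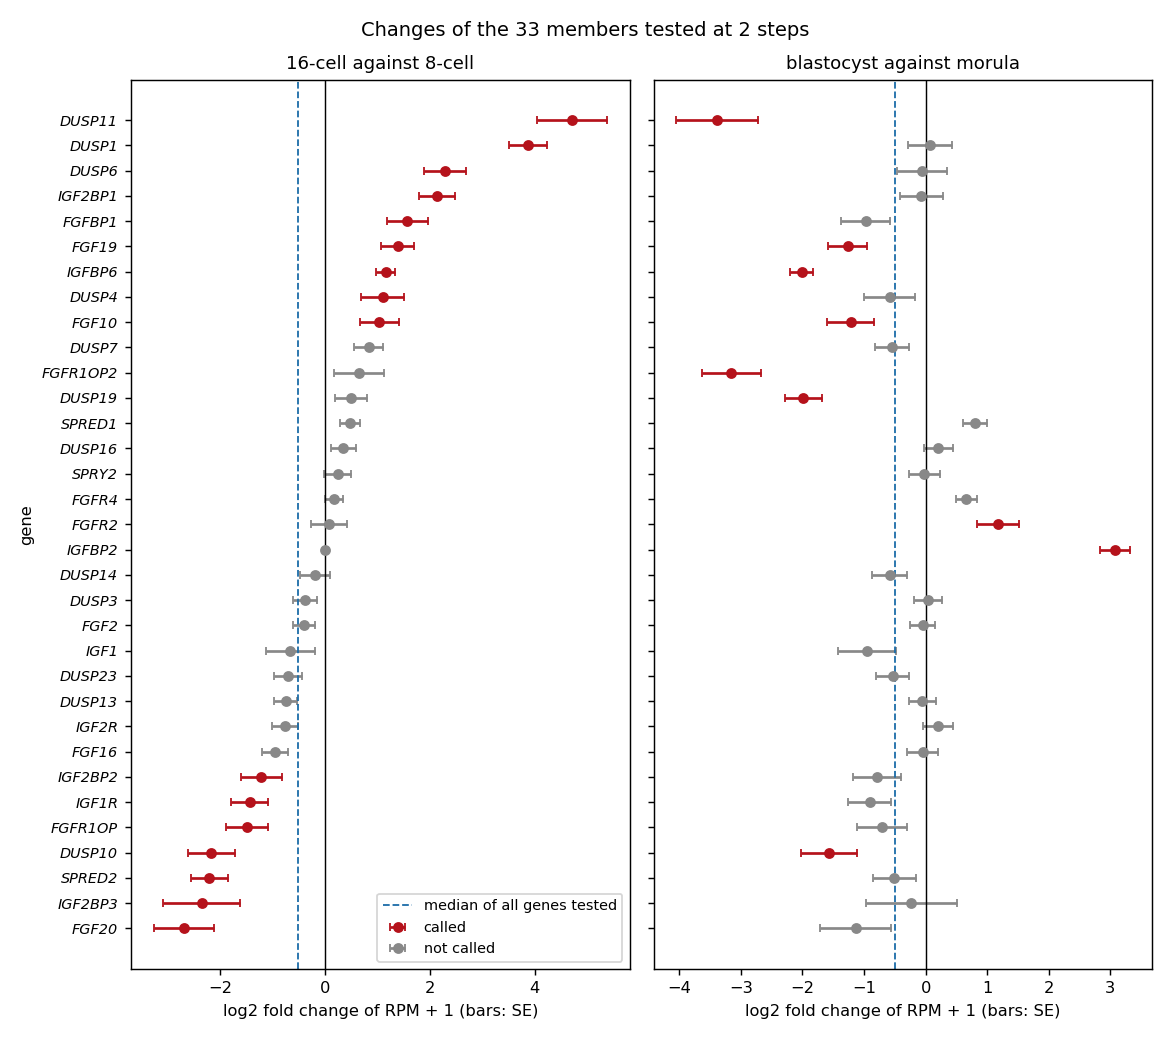
Log2 fold change of RPM + 1 with its SE for the 33 members tested, at the 16-cell stage against the 8-cell stage (left) and in blastocysts against morulae (right), with called members in red and the median of all genes tested as a dashed line. DUSP11, DUSP1, DUSP6 and IGF2BP1 lie farthest to the right at the 16-cell step, and IGFBP2 lies alone at the far right of the blastocyst step.

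FGF20, a secreted ligand of the FGF9 subfamily (chromosome 27, 25329195 to 25339030, minus strand), carried most reads of the listed FGF ligands in oocytes and early embryos. It had 42.2, 53.5 and 34.7 RPM in libraries A, B and C of oocytes, 88.7, 112 and 69.0 RPM at the 2-cell stage, 75.1, 78.8 and 63.6 RPM at the 4-cell stage and 43.2, 47.8 and 50.1 RPM at the 8-cell stage. From there it had 3.07, 4.20 and 17.9 RPM at the 16-cell stage, 0.143, 0.375 and 7.40 RPM in morulae, and 0.110, 0.123 and 0 RPM in blastocysts. The 3 2-cell libraries lay above the 3 oocyte libraries, but the difference was not called (log2 fold change 1.03 ± 0.57 SE, adjusted p = 0.219 by limma). FGF20 fell at the 16-cell stage, with 8.39 ± 8.26 RPM there against 47.0 ± 3.52 RPM at the 8-cell stage (log2 fold change -2.70 ± 0.57 SE, adjusted p = 0.000645 by limma), and no library of either stage overlapped the other. On the deposited scale this was 0.853 ± 0.840 RPKM against 4.78 ± 0.358 RPKM.

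Library C held the highest FGF20 value of both the 16-cell and the morula stage, and without 16-cell C the fall was -3.38. A further fall in morulae against 16-cell embryos (log2 fold change -1.64, limma adjusted p = 0.0473) had overlapping libraries. It was lost without 16-cell C (adjusted p = 0.274), morula A (0.269) or morula B (0.205), and without morula C it was -2.56. From oocyte to blastocyst the log2 fold change was -5.35 ± 0.57 SE (adjusted p = 5.23e-08 by limma). Of the reads of the 13 listed FGF ligands, FGF20 made up 86.5 to 87.6% in oocytes and 91.2 to 93.4% at the 2-cell stage. The share was 90.3 to 93.5% at the 4-cell stage and 89.7 to 91.4% at the 8-cell stage. It made up 28.3 to 83.6% at the 16-cell stage, 4.40 to 54.8% in morulae and 0 to 8.20% in blastocysts. These are shares of reads, not per length. The oocyte marker GDF9 had 0.106 ± 0.0311 RPM in blastocysts against 157 ± 21.8 RPM in oocytes, and the stroma list above was lower too. Their part in the result was not tested.

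FGF16, of the same subfamily as FGF20, followed a flatter course. It had 5.01, 4.82 and 4.20 RPM in oocytes, 5.38, 5.19 and 4.64 RPM at the 2-cell stage, 3.82, 5.52 and 3.37 RPM at the 4-cell stage and 2.45, 2.66 and 2.73 RPM at the 8-cell stage, before 0.703, 0.654 and 1.30 RPM at the 16-cell stage. Morulae had 0, 0.0416 and 0.401 RPM and blastocysts 0, 0.316 and 0 RPM. No single step of FGF16 was called, with -0.95 at the 16-cell stage missing the fold threshold (limma adjusted p = 0.00354), but the blastocyst lay below the oocyte by -2.37 ± 0.25 SE (adjusted p = 4.62e-08 by limma). FGF2, a ligand with broad receptor binding, had no read in any blastocyst library against 1.04, 0.831 and 0.425 RPM in oocytes. Its means were 0.766 ± 0.314 RPM in oocytes, 1.27 ± 0.305 RPM at the 2-cell stage and 0.0321 ± 0.0556 RPM in morulae. The blastocyst against the oocyte gave -0.80 ± 0.20 SE for FGF2, below the fold threshold (limma adjusted p = 0.00152).

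A second group of ligands, FGF19 and FGF10, had its highest stage means at the 16-cell and morula stages. FGF19, an endocrine ligand that in humans signals through FGFR4 and the co-receptor KLB, had 3.73, 2.64 and 0.326 RPM at the 16-cell stage against 0.125, 0.125 and 0.0187 RPM at the 8-cell stage. It rose there by 1.38 ± 0.31 SE on the log2 scale (adjusted p = 0.00102 by limma). Blastocysts had 0.729, 0.421 and 0.0284 RPM of FGF19 and morulae 1.5, 2.33 and 3.24 RPM. FGF19 fell in blastocysts against morulae (log2 fold change -1.27 ± 0.31 SE, adjusted p = 0.00237 by limma), with no overlap. That fall was not called under median-ratio scaling (adjusted p = 0.0684) or quantile normalization (0.0747).

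FGF10, a ligand that acts on epithelial FGFR2, varied widely between libraries of a stage. It had 1.41, 2.29 and 0.279 RPM at the 16-cell stage against 0.179, 0 and 0 RPM at the 8-cell stage, and 0.0178, 4.46 and 1.35 RPM in morulae. The 16-cell rise of FGF10 (1.03 ± 0.38 SE, limma adjusted p = 0.0251) was lost without 8-cell B (adjusted p = 0.0668), 8-cell C (0.0613), 16-cell A (0.0805) or 16-cell B (0.141). Its fall in blastocysts against morulae (-1.22 ± 0.38 SE, limma adjusted p = 0.0134) had overlapping libraries, was lost without morula B (adjusted p = 0.111) and was -1.82 without morula A.

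FGF4 stayed below the level tested, yet its reads were not spread evenly. It had 0, 0.211 and 0 RPM in blastocysts against 0.624, 0.375 and 0.546 RPM in morulae, which there is 35, 9 and 34 reads. No oocyte, 2-cell or 4-cell library had a read of FGF4, and the 8-cell and 16-cell libraries had at most 6. FGF4 and FGF19 are neighbours on chromosome 29, on the same strand and 58.5 kb apart. Of the other secreted ligands not tested, FGF9 reached its highest stage mean of 0.732 RPM at the 8-cell stage and FGF5 0.522 RPM in oocytes. FGF8 and FGF18 had their highest stage mean in blastocysts, at 0.213 and 0.283 RPM. FGF1, FGF6 and FGF17 had 10, 26 and 37 reads over all 21 libraries. The intracellular factors FGF12 and FGF14, which bind sodium channels and not FGF receptors, had stage means of at most 0.324 and 0.656 RPM.

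**Figure D3:**
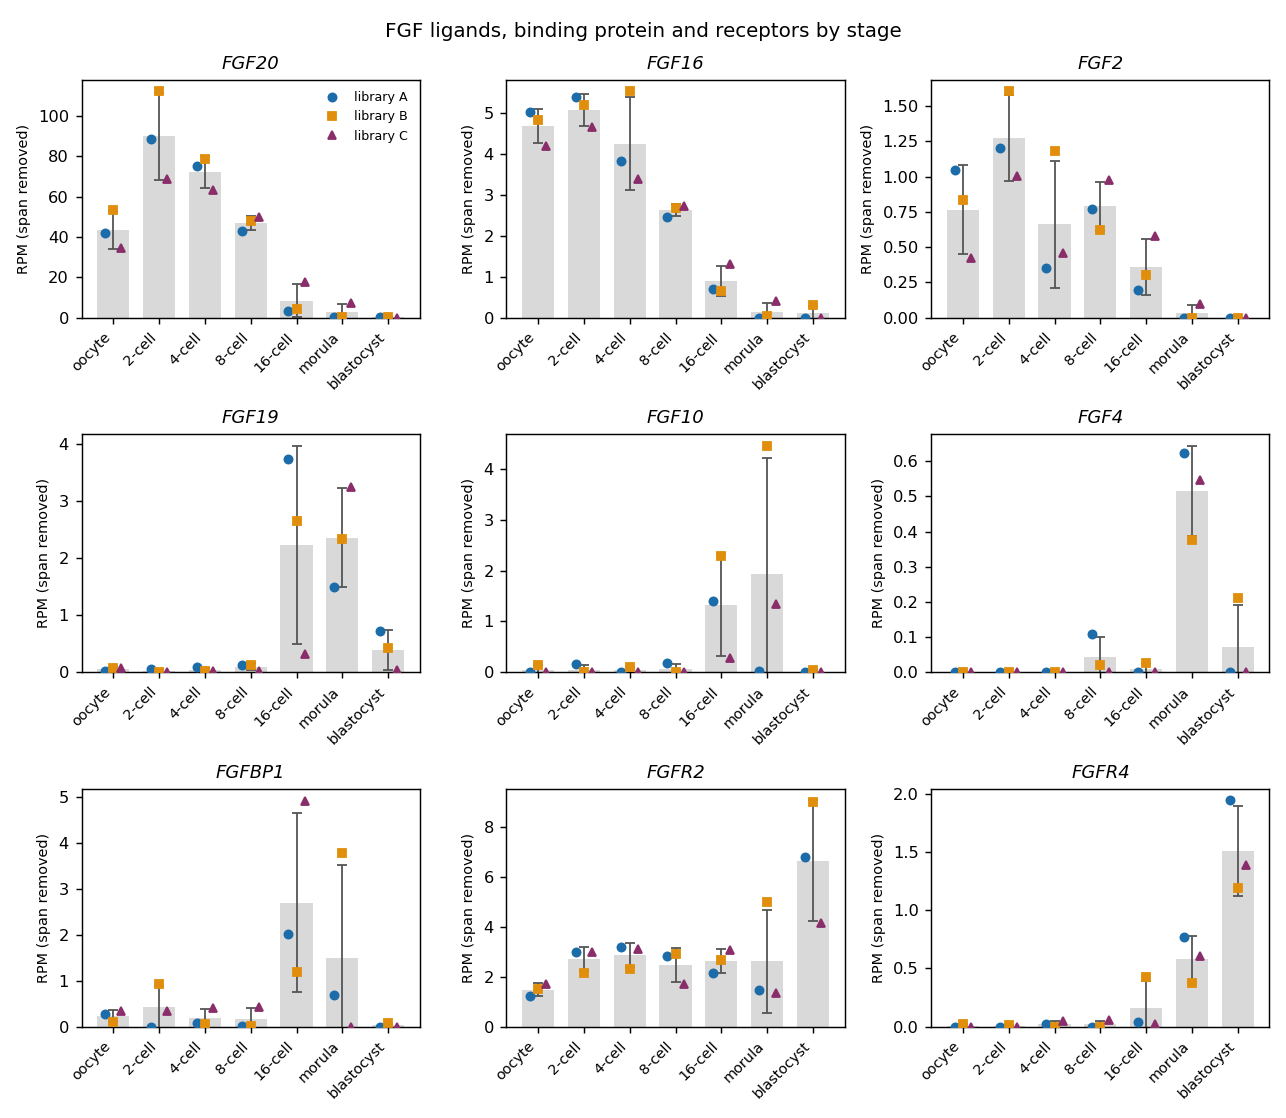
RPM (vertical axes, span removed, each panel on its own linear scale) of 6 FGF ligands, FGFBP1, FGFR2 and FGFR4 at the 7 stages, with bars for the mean, error bars for the SD and points for libraries A to C. FGF20, FGF16 and FGF2 are high up to the 8-cell stage, FGF19, FGF10 and FGFBP1 at the 16-cell and morula stages, FGF4 in morulae, and FGFR2 and FGFR4 in blastocysts.

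FGFBP1, a secreted carrier that frees FGFs from heparan sulphate, had its highest stage mean at the 16-cell stage. It had 2.01, 1.18 and 4.91 RPM there against 0.0179, 0.0208 and 0.430 RPM at the 8-cell stage, with no overlap. FGFBP1 rose by 1.57 ± 0.40 SE on the log2 scale (adjusted p = 0.00284 by limma). Blastocysts had 0, 0.0702 and 0 RPM of FGFBP1 and morulae 0.678, 3.79 and 0 RPM. The blastocyst step was not called with all libraries, but gave -1.47 (adjusted p = 0.00179) when 16-cell C and morula C were left out.

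FGFR2, the receptor of FGF10 among other ligands, had at least 1.21 RPM in every library. It had 1.21, 1.49 and 1.72 RPM in oocytes, stage means between 2.46 and 2.87 RPM from the 2-cell stage to the morula, and 6.78, 8.98 and 4.14 RPM in blastocysts (chromosome 26, 10427974 to 10534439, plus strand). All 3 blastocyst libraries lay above all 3 oocyte libraries, and FGFR2 rose over that interval by 1.58 ± 0.34 SE (adjusted p = 0.000326 by limma). Against morulae, which had 1.46, 4.998 and 1.35 RPM, the blastocyst libraries overlapped. That rise of 1.18 ± 0.34 SE (limma adjusted p = 0.00824) dropped under the fold threshold without morula A (0.97), morula C (0.94) or blastocyst B (0.96). It was 1.98 under median-ratio scaling and 1.92 under quantile normalization.

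FGFR4 appeared late. It had at most 3 reads in any library up to the 8-cell stage, 0.0391, 0.427 and 0.0233 RPM at the 16-cell stage, 0.767, 0.375 and 0.610 RPM in morulae and 1.94, 1.19 and 1.39 RPM in blastocysts. In blastocysts against oocytes FGFR4 rose by 1.31 ± 0.17 SE on the log2 scale (adjusted p = 7.07e-07 by limma). Blastocysts lay above morulae in all libraries by 0.66 ± 0.17 SE, below the fold threshold (limma adjusted p = 0.00345). Under median-ratio scaling that step was 1.27 and under quantile normalization 1.17, both past it.

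The other FGF receptors were at the limit of counting. FGFR1 had 22 reads over all 21 libraries and never more than 0.123 RPM, and FGFR3 had 21 reads and never more than 0.156 RPM. FGFRL1, a receptor without a kinase domain, reached 0.425 RPM in blastocysts as its highest stage mean. Marker lists of blastocyst lineages did not all move with FGFR2 and FGFR4. The trophectoderm and primitive endoderm lists had higher sums in blastocysts than in morulae, and the epiblast list had lower ones. The 5 epiblast genes summed to 27 to 31.5 RPM in blastocysts and 65.9 to 144.4 RPM in morulae. Among them only POU5F1 had the higher mean in blastocysts, at 7.97 RPM against 4.02 RPM. The 7 trophectoderm genes summed to 803 to 1487 RPM in blastocysts and 20.9 to 40.8 RPM in morulae, most of it KRT8 at 957 ± 329 RPM in blastocysts and 12.6 ± 3.37 RPM in morulae. TFAP2C of that list had 2.62 ± 1.68 RPM in blastocysts against 9.15 ± 2.83 RPM in morulae, and TEAD4 2.52 ± 0.774 RPM against 2.21 ± 1.19 RPM. The 4 primitive endoderm genes summed to 467 to 611 RPM in blastocysts and 4.42 to 77.2 RPM in morulae, nearly all of it DAB2 at 516 ± 80.2 RPM and 31.7 ± 36.0 RPM, with GATA6 at 1.22 ± 1.15 RPM and 1.87 ± 2.47 RPM. The part of these cell types in the receptor levels was not tested.

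FGFR1OP, a centrosomal protein also called CEP43, had 9.73 ± 4.20 RPM in oocytes and 13.6 ± 0.980 RPM at the 8-cell stage. It fell at the 16-cell stage, which had 4.33 ± 1.63 RPM (log2 fold change -1.49 ± 0.41 SE, adjusted p = 0.00434 by limma, no overlap), a call lost under median-ratio scaling, where the value came just short of the fold threshold. FGFR1OP also fell in blastocysts against oocytes (-1.40 ± 0.41 SE, limma adjusted p = 0.00464), with overlapping libraries, and both other scalings put it under the fold threshold. FGFR1OP2 had 1.75, 1.03 and 4.85 RPM in blastocysts and 19.9, 15.9 and 64.4 RPM in morulae. Its fall in blastocysts against morulae was -3.16 ± 0.48 SE (adjusted p = 1.99e-05 by limma), or -2.56 without morula C.

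In the IGF system the ligand IGF1 and the receptor IGF1R had their highest stage mean at the 8-cell stage and their lowest in blastocysts. IGF1 (chromosome 5, 64865221 to 64942530, minus strand) had 4.91, 8.97 and 4.09 RPM in oocytes, 9.30, 7.43 and 2.63 RPM at the 2-cell stage, 7.42, 8.01 and 8.39 RPM at the 4-cell stage and 10.9, 9.05 and 8.05 RPM at the 8-cell stage. It had 4.02, 5.98 and 6.77 RPM at the 16-cell stage, 0.375, 0.167 and 4.69 RPM in morulae and 0, 0.228 and 0.0284 RPM in blastocysts. IGF1 fell in blastocysts against oocytes by -2.63 ± 0.47 SE (adjusted p = 3.89e-05 by limma), with no overlap. The 16-cell stage lay below the 8-cell stage in every library without passing the test (-0.66 ± 0.47 SE, limma adjusted p = 0.228). Morula C, at 4.69 RPM, lay among the 16-cell libraries, while morulae A and B lay far below them. The fall of IGF1 in morulae against the 16-cell stage (-1.63 ± 0.47 SE, limma adjusted p = 0.0175) was lost without 16-cell C (adjusted p = 0.0593), morula A (0.109) or morula B (0.111), and was -2.36 without morula C. IGF2, the other ligand, had 17 reads in all 21 libraries together and never more than 0.201 RPM.

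IGF1R, the signalling receptor of both IGFs, had its highest stage means from the 2-cell to the 8-cell stage. It had 3.96, 3.47 and 6.41 RPM at the 2-cell stage against 1.76, 1.07 and 0.592 RPM in oocytes, and rose by 1.39 ± 0.36 SE on the log2 scale (adjusted p = 0.00951 by limma). That rise was lost without oocyte C (adjusted p = 0.0672) or 2-cell C (0.0629). The median gene rose by 0.46 at this step, and under median-ratio scaling IGF1R moved by 0.84 (adjusted p = 0.109). At the 16-cell stage IGF1R had 0.957, 0.930 and 3.28 RPM against 7.24, 6.49 and 4.25 RPM at the 8-cell stage, and fell by 1.44 ± 0.36 SE on the log2 scale (adjusted p = 0.00212 by limma). On the deposited scale IGF1R, which spans 298 kb, was 0.00578 ± 0.00453 RPKM there against 0.0201 ± 0.00522 RPKM. Blastocysts had 0.95, 0.509 and 0.341 RPM.

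IGF2R, the receptor that takes up and clears IGF2, rose together with IGF1R at the 2-cell stage. It had 1.90, 1.49 and 2.72 RPM there against 0.664, 0.618 and 0.185 RPM in oocytes (log2 fold change 1.02 ± 0.25 SE, adjusted p = 0.00683 by limma). Without oocyte C or without 2-cell C the change of IGF2R was 0.87, with adjusted p of 0.0554 and 0.0470, and with median-ratio scaling it was 0.62. The 16-cell stage, with 0.558 ± 0.394 RPM against 1.62 ± 0.398 RPM at the 8-cell stage, had a log2 fold change of -0.77 that missed the fold threshold (limma adjusted p = 0.0125). INSR, the insulin receptor, had 34 reads over all libraries and at most 0.228 RPM. Of the adaptors listed, IRS2 had 45 reads and at most 0.211 RPM, and IRS4 14 reads and at most 0.193 RPM. IRS1 is not among the listed genes, so its level is not known here.

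The IGF-binding proteins that were read differed from stage to stage. IGFBP3, the main IGF carrier of serum, reached 1 RPM in a single library and was not tested. It had stage means of 0.661 ± 0.167, 1.16 ± 0.557, 0.722 ± 0.0529 and 0.601 ± 0.141 RPM from the oocyte to the 8-cell stage, then 0.0549 ± 0.0744 RPM at the 16-cell stage, 0.155 ± 0.269 RPM in morulae and 0 RPM in blastocysts. IGFBP6, which prefers IGF2 over IGF1, had at most 4 reads in any library up to the 8-cell stage. It had 1.47, 1.86 and 0.628 RPM at the 16-cell stage, 3.21, 3.04 and 3.34 RPM in morulae and 0.0442, 0.0702 and 0 RPM in blastocysts. The 16-cell rise of IGFBP6 was 1.16 ± 0.18 SE (adjusted p = 3.34e-05 by limma), and 0.98 without 16-cell B. In morulae against the 16-cell stage the libraries did not overlap either, but at 0.90 ± 0.18 SE IGFBP6 missed the fold threshold (limma adjusted p = 0.00174). Its fall in blastocysts against morulae was -2.02 ± 0.18 SE (adjusted p = 1.76e-08 by limma), with no overlap.

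IGFBP2, a carrier of both IGFs (chromosome 2, 31148968 to 31180232, minus strand), was read almost only in blastocysts. It had 14.5, 7.99 and 4.29 RPM in blastocysts against 0.214, 0 and 0.0161 RPM in morulae, and no read in any 4-cell, 8-cell or 16-cell library. IGFBP2 rose in blastocysts by 3.07 ± 0.24 SE on the log2 scale (adjusted p = 2.35e-09 by limma), with no overlap, and this call held without each library of the 2 stages and under both other scalings. In RPKM it was 0.285 ± 0.165 against 0.00245 ± 0.00381 in morulae. The SE of IGFBP2 pools stages at or near 0 RPM with blastocysts, whose libraries ran from 4.29 to 14.5 RPM. The p-value may therefore be too small. IGFBP5, whose gene lies 12.7 kb from IGFBP2, had 29 reads in all and a highest stage mean of 0.148 RPM, also in blastocysts. IGFBP1 had 10 reads and IGFBP4 18, while IGFBP7 and IGFBPL1 had highest stage means of 0.375 RPM at the 2-cell stage and 0.482 RPM at the 16-cell stage.

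The IGF2 mRNA-binding proteins, which bind IGF2 and other messenger RNAs in the cytoplasm and regulate their translation and stability, took opposite directions at the 16-cell stage. IGF2BP3 (chromosome 4, 88490708 to 88636830, plus strand) had 34.7, 44.0 and 22.6 RPM in oocytes, 80.9, 59.3 and 105 RPM at the 2-cell stage, 100.3, 50.4 and 65.5 RPM at the 4-cell stage and 153, 167 and 109.7 RPM at the 8-cell stage. It had 18.7, 19.9 and 51.0 RPM at the 16-cell stage, 1.46, 2.29 and 56.0 RPM in morulae and 5.12, 5.02 and 6.72 RPM in blastocysts. The 16-cell libraries lay below all 8-cell libraries, with library C the highest of its stage as in morulae.

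The fall of IGF2BP3 at the 16-cell stage was -2.35 ± 0.74 SE (adjusted p = 0.0110 by limma). Without 16-cell A the adjusted p was 0.0504. In blastocysts against oocytes IGF2BP3 fell by 2.35 ± 0.74 SE on the log2 scale (adjusted p = 0.00805 by limma). The order of morula and blastocyst depended on the C libraries. The log2 fold change of blastocysts against morulae was -0.23 with all libraries (adjusted p = 0.833) and 1.21 (adjusted p = 0.0143) without 16-cell C and morula C. The morula step, -1.85 with overlap (adjusted p = 0.0810), was -2.83 (adjusted p = 3.64e-05) without those libraries.

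IGF2BP2 had its highest stage mean at the 8-cell stage too. Its fall at the 16-cell stage, with 2.08 ± 0.554 RPM against 6.31 ± 2.16 RPM at the 8-cell stage (-1.22 ± 0.39 SE, limma adjusted p = 0.0120) was lost without 8-cell B (adjusted p = 0.0598) and under median-ratio scaling (0.0726). Its fall in blastocysts against oocytes (-1.08 ± 0.39 SE, limma adjusted p = 0.0183) was lost without oocyte A (adjusted p = 0.0882) or blastocyst C (0.0532). IGF2BP1 ran the other way. It had no read in any oocyte or 2-cell library, 4.90, 6.59 and 1.12 RPM at the 16-cell stage against 0.0536, 0 and 0.0561 RPM at the 8-cell stage, and 6.24, 6.50 and 2.44 RPM in morulae. Blastocysts kept 5.96, 3.16 and 4.57 RPM. IGF2BP1 rose at the 16-cell stage by 2.14 ± 0.35 SE (adjusted p = 5.24e-05 by limma). Against a floor of 3 reads per library in oocytes, its blastocyst mean was at least 77.7-fold higher.

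**Figure D4:**
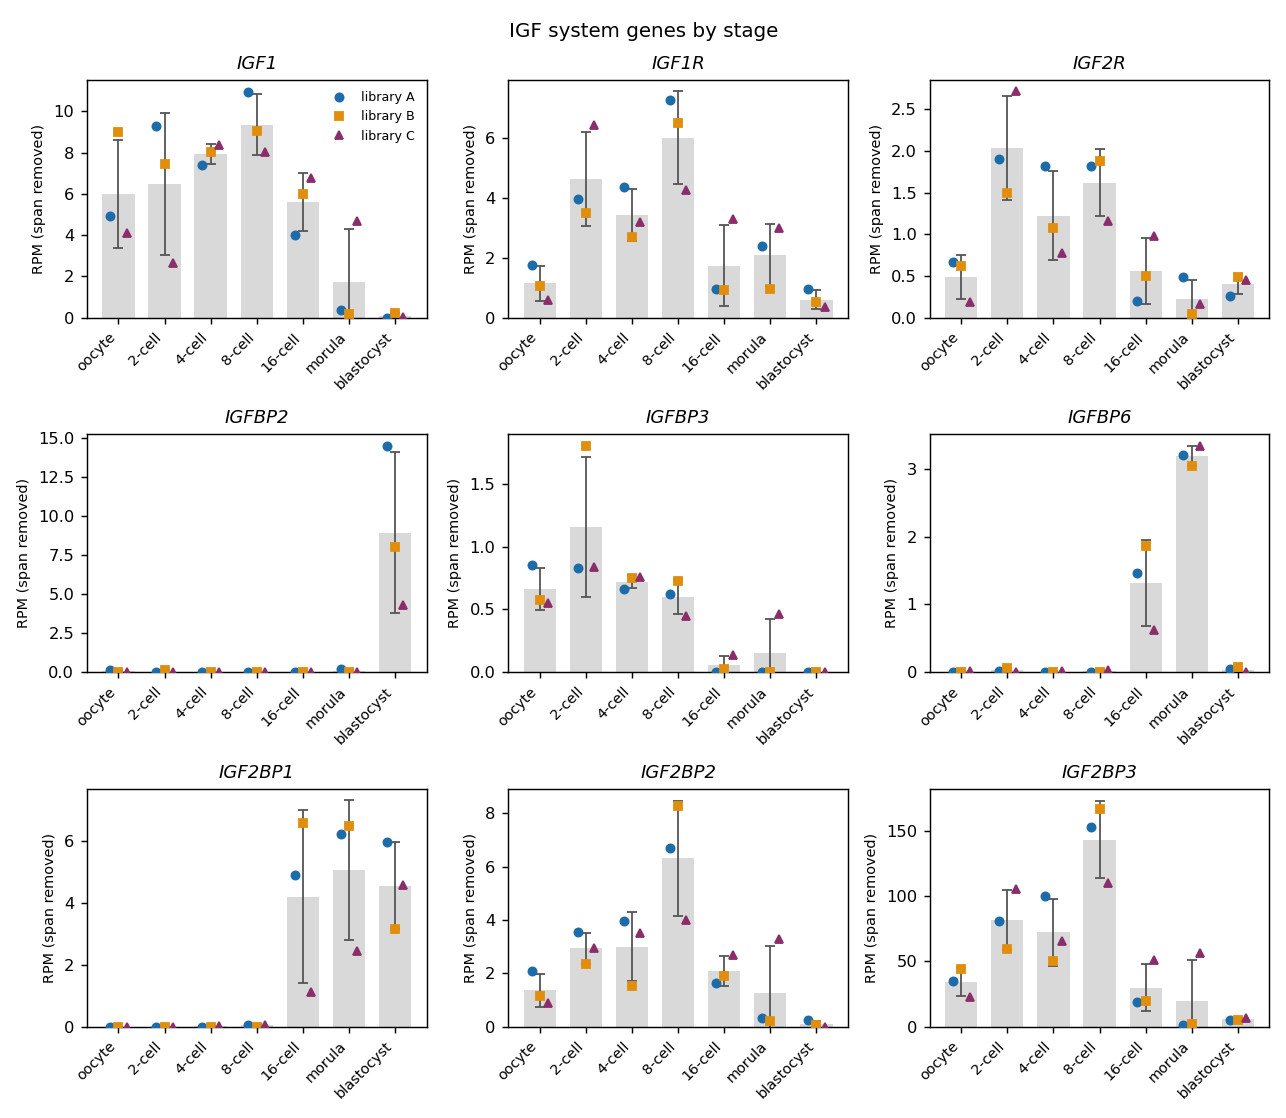
RPM (vertical axes, span removed, each panel on its own linear scale) of IGF1, IGF1R, IGF2R, 3 IGF-binding proteins and the 3 IGF2 mRNA-binding proteins at the 7 stages, with bars for the mean, error bars for the SD and points for libraries A to C. IGFBP3 is highest up to the 8-cell stage, IGFBP6 in morulae and IGFBP2 in blastocysts, and morula C stands far above morulae A and B for IGF1, IGF2BP2 and IGF2BP3.

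Among the inhibitors of RAS, SPRED2 had its highest stage mean at the 8-cell stage and SPRED1 in blastocysts. SPRED2 had 5.47, 6.33 and 3.15 RPM at the 8-cell stage and 1.94, 0.596 and 1.26 RPM at the 4-cell stage. The 8-cell libraries lay above all 4-cell libraries, but the difference was not called (1.40 ± 0.35 SE, limma adjusted p = 0.0974). Without 16-cell C and morula C the same difference had an SE of 0.27 and an adjusted p of 0.00862. SPRED2 fell at the 16-cell stage, with 0.0977, 0.0754 and 0.675 RPM there (-2.21 ± 0.35 SE, adjusted p = 3.68e-05 by limma). SPRED1 had 1.03 ± 0.120 RPM at the 16-cell stage, 0.257 ± 0.156 RPM in morulae and 1.22 ± 0.546 RPM in blastocysts. None of its steps passed the fold threshold on the RPM scale. In blastocysts against morulae SPRED1 gave 0.80 (limma adjusted p = 0.00217), and 1.36 under median-ratio scaling. SPRY2, an inhibitor induced by FGF signals, had stage means from 0.122 RPM in oocytes to 0.862 RPM at the 4-cell stage and no called step. SPRY4 had 70 reads in all and at most 0.321 RPM.

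DUSP1, a nuclear phosphatase of p38, JNK and ERK known as an immediate early gene (chromosome 20, 4599677 to 4604827, minus strand), had the smallest adjusted p of the members in the 16-cell comparison. It had 0.675 to 1.80 RPM in all 12 libraries up to the 8-cell stage, then 30.8, 42.9 and 16.7 RPM at the 16-cell stage, 77.6, 91.1 and 76.0 RPM in morulae and 111, 53.3 and 105 RPM in blastocysts. The 16-cell stage averaged 30.1 ± 13.1 RPM against 0.994 ± 0.234 RPM at the 8-cell stage, a log2 fold change of 3.88 ± 0.36 SE (adjusted p = 3.70e-08 by limma). In RPKM these were 5.85 ± 2.54 and 0.193 ± 0.0454. DUSP1 rose again in morulae against the 16-cell stage (1.5 ± 0.36 SE, adjusted p = 0.00582 by limma), with no overlap. It was the only member called higher at that step, and both calls held without each library of their stages. Blastocysts and morulae overlapped on the RPM scale (log2 fold change 0.07, limma adjusted p = 0.897). Under median-ratio scaling that step was 1.01 (adjusted p = 0.0368).

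DUSP6, a cytoplasmic phosphatase of ERK and a common readout of FGF signalling, was present at every stage. It had 12.7, 10.9 and 15.5 RPM in oocytes, 13.3, 7.12 and 5.88 RPM at the 2-cell stage, 15.0, 13.7 and 11.8 RPM at the 4-cell stage and 6.74, 5.54 and 6.42 RPM at the 8-cell stage. The 16-cell stage had 31.8, 40.8 and 30.5 RPM, above every earlier library. DUSP6 rose there by 2.28 ± 0.41 SE on the log2 scale (adjusted p = 0.000130 by limma), which was 7.12 ± 1.16 RPKM against 1.29 ± 0.129 RPKM at the 8-cell stage. Morulae then had 12.2, 33.4 and 42.0 RPM and blastocysts 20.03, 33.5 and 22.9 RPM. Those last stages overlapped with the 16-cell libraries and were not called. DUSP6 is at chromosome 5, 18982730 to 18987556, minus strand.

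DUSP4, a nuclear relative of DUSP1, had 1.33, 0.930 and 1.77 RPM at the 16-cell stage against 0.0715, 0.146 and 0.0374 RPM at the 8-cell stage. Its rise of 1.10 ± 0.42 SE (limma adjusted p = 0.0306) was lost without any single 8-cell library or without 16-cell A or C (adjusted p from 0.0584 to 0.0812). The call was also lost under median-ratio scaling (adjusted p = 0.107), quantile normalization (0.102) and no filter (0.0546), and without 16-cell C and morula C (0.0558). In blastocysts DUSP4 had 0, 3.97 and 0.0568 RPM, nearly all of it in library B. DUSP7, an ERK phosphatase, had 3.26, 4.17 and 2.28 RPM at the 16-cell stage against 1.64, 1.12 and 1.27 RPM at the 8-cell stage. The libraries did not overlap, but at 0.83 DUSP7 missed the fold threshold (limma adjusted p = 0.0149), and both other scalings put it past it, at 1.16 and 1.08. DUSP16, a JNK phosphatase, stayed between 0.351 and 1.5 RPM in all 21 libraries.

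DUSP10, a phosphatase of p38 and JNK, fell where DUSP1 rose. It had 18.6, 25.3 and 17.3 RPM at the 2-cell stage against 5.52, 4.95 and 6.12 RPM in oocytes, and rose by 1.70 ± 0.45 SE (adjusted p = 0.0116 by limma). Under median-ratio scaling this was 0.95 (adjusted p = 0.148). At the 16-cell stage DUSP10 had 1.76, 5.46 and 10 RPM against 20.9, 28.6 and 26.6 RPM at the 8-cell stage, and fell by 2.17 ± 0.45 SE on the log2 scale (adjusted p = 0.000529 by limma). Blastocysts had 0, 0.105 and 0 RPM against 1.21, 0.916 and 5.78 RPM in morulae (-1.57 ± 0.45 SE, limma adjusted p = 0.00793), a fall that without morula C was -0.99 (adjusted p = 0.0670).

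Among the other DUSPs, DUSP11 is a nuclear phosphatase that acts on RNA 5′ ends. On the log2(RPM + 1) scale it had the largest fold change of any member between consecutive stages. By the ratio of stage means, IGFBP2 rose more (116-fold in blastocysts against morulae) than DUSP11 (41.5-fold at the 16-cell stage). DUSP11 had 0.999 to 9.15 RPM in all libraries up to the 8-cell stage and 86.3, 287 and 63.9 RPM at the 16-cell stage. Morulae had 224, 346 and 215 RPM and blastocysts 16.1, 6.67 and 112 RPM (chromosome 11, 10711080 to 10725549, plus strand). DUSP11 rose by 4.71 ± 0.67 SE at the 16-cell stage (adjusted p = 1.06e-05 by limma), or 4.07 without 16-cell B, and fell in blastocysts against morulae by -3.38 ± 0.67 SE (adjusted p = 0.000354 by limma). That fall was -4.49 without blastocyst C and -2.54 without blastocyst B. Its rise in blastocysts against oocytes (1.80, limma adjusted p = 0.0217) rested on blastocyst C, without which it was 0.70 (adjusted p = 0.272). It was also lost without oocyte A (adjusted p = 0.0612) or oocyte B (0.0700), and it was 2.64 without blastocyst B.

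DUSP19, linked to the JNK pathway, was read from the oocyte to the morula at stage means of 2.73 to 6.96 RPM. It fell in blastocysts, with 0.287, 0.0175 and 0.482 RPM against 4.07, 3.79 and 4.00 RPM in morulae (-1.99 ± 0.30 SE, adjusted p = 2.13e-05 by limma). DUSP14 had 0.0366 ± 0.0456 RPM in blastocysts against 1.71 ± 0.771 RPM in oocytes (-1.35 ± 0.29 SE, limma adjusted p = 0.000286). DUSP13 had no read in blastocysts against 1.13 ± 0.336 RPM in oocytes, at least 16.6-fold lower at a floor of 3 reads per library. The fitted fall of DUSP13 (-1.08, limma adjusted p = 0.000199) was -0.97 without oocyte A. DUSP23 had 1.80, 3.32 and 2.24 RPM at the 2-cell stage against 0.721, 0.298 and 0.277 RPM in oocytes (1.26 ± 0.27 SE, adjusted p = 0.00318 by limma), or 0.82 (adjusted p = 0.0579) under median-ratio scaling. DUSP3 had stage means up to 1.33 RPM and no called step. DUSP27 was not tested, since it reached 1 RPM in fewer than 3 libraries. It had 1.59, 0.912 and 1.48 RPM in blastocysts against 0.0178, 0 and 0 RPM in morulae. Among the remaining DUSPs, DUSP5, DUSP8, DUSP18, DUSP22, DUSP26 and DUSP28 had highest stage means of 0.0672 to 0.376 RPM.

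**Figure D5:**
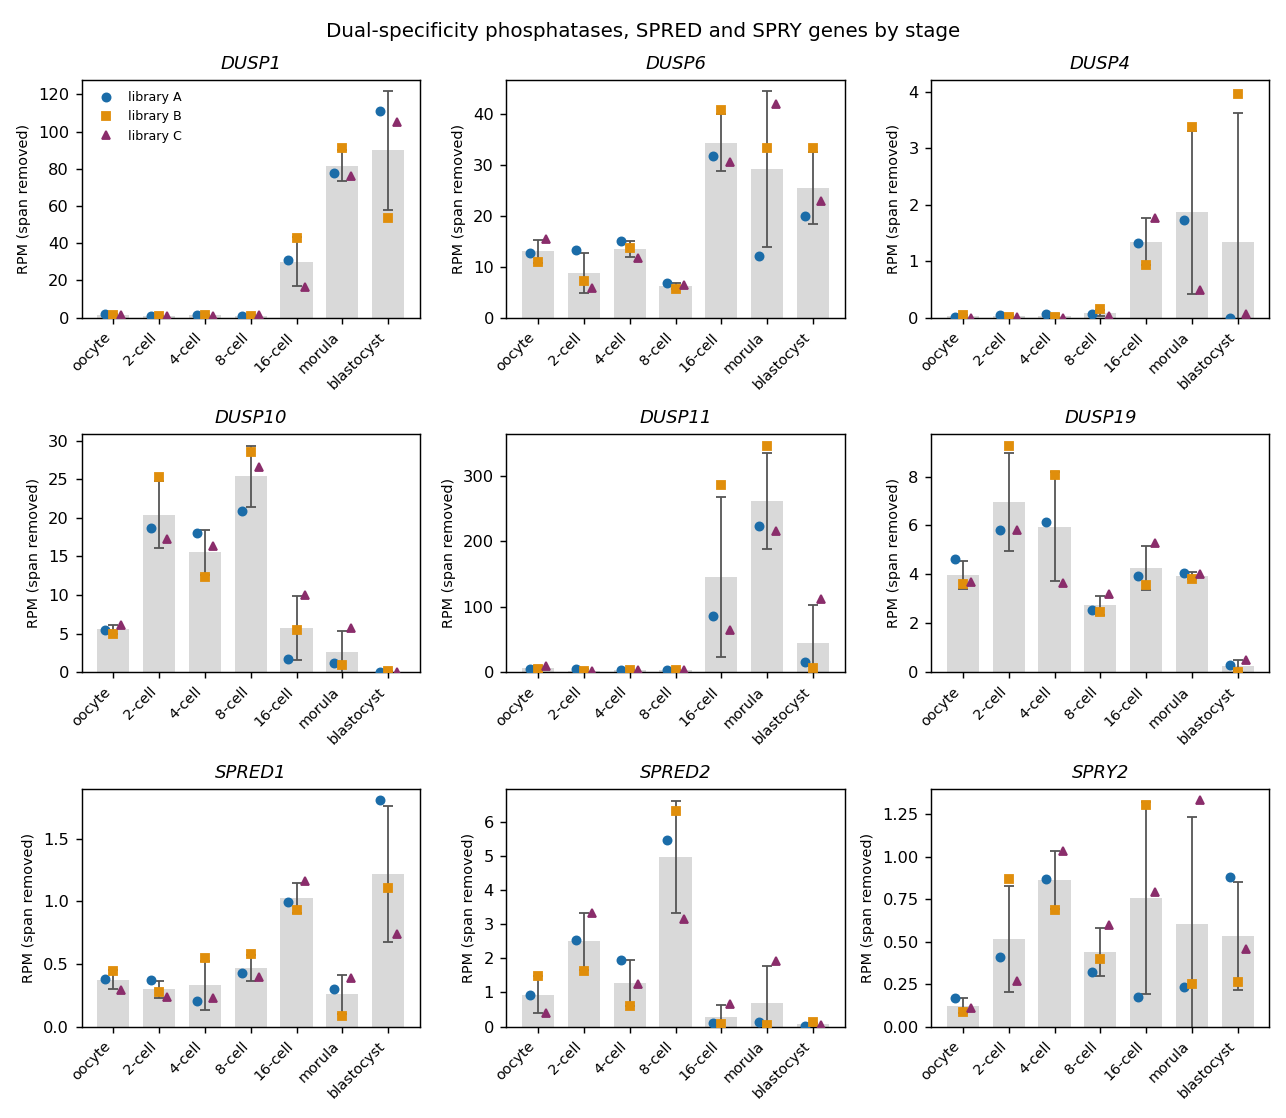
RPM (vertical axes, span removed, each panel on its own linear scale) of 6 DUSP genes, SPRED1, SPRED2 and SPRY2 at the 7 stages, with bars for the mean, error bars for the SD and points for libraries A to C. DUSP1, DUSP6, DUSP4 and DUSP11 are higher at the 16-cell stage than at the 8-cell stage, and DUSP10 and SPRED2 lower.

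Other genes of these pathways, in 8 lists of which 89 genes were tested, are given by their counts beside those of all genes. At the 16-cell stage against the 8-cell stage 7 of the 89 rose and 36 fell, or 7.87% and 40.4%, against 15.4% and 30.7% of all genes. These counts were 11 and 21 with median-ratio scaling and 10 and 27 with quantile normalization. Of all 10384 genes, 2030 rose and 1787 fell there with median-ratio scaling, and 1962 and 2157 with quantile normalization. The adaptors of FGF receptors had 10 of 14 lower and 0 higher there (median log2 fold change -1.27), among them CBLB, a ubiquitin ligase of active receptors, with 6.29 ± 4.75 RPM against 51.5 ± 9.90 RPM (-3.03). SOS2, an exchange factor that loads RAS, had 4.78 ± 1.94 RPM against 37.9 ± 4.93 RPM (-2.80). In the PI3K, AKT and mTOR list 9 of 20 fell and 0 rose, and in the RAS and ERK cascade 7 of 19 fell and 2 rose, with RASA1, a RAS GTPase activator, at 22.4 ± 12.9 RPM against 164.9 ± 24.9 RPM (-2.96) and the ERK kinase MAP2K1 at 13.8 ± 13.7 RPM against 80.9 ± 12.4 RPM (-2.85). EXT1, a heparan sulphate polymerase, had 22.3 ± 14.1 RPM against 146 ± 15.7 RPM (-2.82). All of these were called by limma.

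The genes of these lists that rose at the 16-cell stage included targets of ERK and genes of IGF availability. MYC had 79.8 ± 39.6 RPM at the 16-cell stage against 0.929 ± 0.0427 RPM at the 8-cell stage (5.23 ± 0.81 SE, adjusted p = 5.23e-05 by limma), and FOS 15.8 ± 7.61 RPM against 1.12 ± 0.580 RPM (2.93). Of 10 ERK targets tested 2 rose and 1 fell there. STC2, an inhibitor of the protease that releases IGF from binding proteins, had 18.7 ± 9.39 RPM against 0.665 ± 0.763 RPM (3.54), and ADAMTS1, a secreted metalloprotease, 22.3 ± 8.47 RPM against 0.0319 ± 0.0386 RPM (4.42). Both fell again in morulae against the 16-cell stage, ADAMTS1 by -3.68 and STC2 by -2.21. The fall of STC2 was lost without morula A. In blastocysts against morulae 7 of the 89 rose and 20 fell, or 7.87% and 22.5%, close to the 7.74% and 28.1% of all genes. With either of the other scalings 16 rose and 9 fell. Of all 10384 genes, 1754 rose and 1565 fell with median-ratio scaling, and 1676 and 1635 with quantile normalization. ARAF, a RAF kinase, had 8.33 ± 3.02 RPM against 1.46 ± 1.93 RPM (2.15), and FOXO1, the transcription factor restrained by AKT, had 3.15 ± 2.76 RPM against 55.7 ± 54.7 RPM (-3.50). At the 2-cell stage against the oocyte 23 of the 89 rose and 0 fell, or 25.8% and 0%, against 14% and 0.482% of all genes. With median-ratio scaling 1 rose and 1 fell, and with quantile normalization 3 rose and 1 fell. Of all 10384 genes, 184 rose and 316 fell with median-ratio scaling, and 177 and 173 with quantile normalization. Among the 23 was the p38 MAP kinase MAPK14, with 9.41 ± 0.490 RPM against 1.29 ± 0.342 RPM (2.19 ± 0.36 SE, adjusted p = 0.000520 by limma).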

How the data were processed

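RNA of 21 goat libraries, 3 at each of 7 stages, was analysed, and stages were taken from the sample titles. The authors deposited 1 table of RPKM values for 19040 genes, per the file headers. Per the submitters' processing notes the tools were STAR 2.5.3a, Partek and FastQC. Not given in the sources used here are the genome build, strandedness, counting rule and handling of reads shared between similar genes, so coordinates are as the table gives them. An offset of 0.01 and a division by the gene span were checked on the values. With both undone, 94.7 to 96.5% of a library's low values fell on multiples of 1 step (within 0.05 of a step). This step gives RPM, an implied total of 24.0 to 66.6 M reads and 8.47 to 26.7 M reads in genes, 24.4 to 42.0% of the total. The lowest shares were those of blastocysts A and B. Members overlapped no row of the table other than small RNA genes. The labels say that the reverse reads of morula A were corrupt.

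Genes with at least 1 RPM in at least 3 libraries were fitted on log2(RPM + 1) with limma 3.58.1 (trend and robust) in R 4.3.3, in 1 model of all libraries with stage as the only term. Tests were two-sided, and p-values were adjusted over all 10384 genes tested. The procedure was first tested on simulated data. Python 3.11.15 with pandas 2.3.3, numpy 2.4.6 and matplotlib 3.10.9 gave the tables and figures. Alternatives were the RPKM scale, pseudocounts of 0.1 and 5, a filter of 5 RPM and none, median-ratio scaling, quantile normalization, the letter as a block, each library left out in turn, and 16-cell C and morula C left out together. The members, gene lists and alternatives were chosen with earlier results of these data known. Named were members called without overlap between stages (up to 6 rises and 6 falls per comparison), the 2 members with the highest mean in each role, FGF4, FGF2, FGFR1 to FGFR4, IGF1, IGF2, IGF1R, IGF2R, INSR, SPRY4 and DUSP6, and up to 2 rises and 2 falls of each pathway list, of which the text gives a part. Other members were named after their values were seen. The labels do not say whether the same letter pairs libraries of different stages. The correlations of deviations between libraries of the same letter ran from -0.301 to 0.388, the highest between morula C and 16-cell C. With 3 libraries a stage these correlations cannot settle whether letters are paired. No sequences are shown, since none was analysed here.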

Additional observations from a re-analysis of the deposited data

How the results depend on the processing

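Of the 49 calls of members in the 7 comparisons, 34 were kept without each library of their stages in turn, 15 were lost without at least 1 library, and none changed sign in the alternatives run. With the replicate block the counts were 4, 0, 0, 16, 3, 9 and 17 in the order of the comparisons, 31 members differed across stages, and all 49 calls were kept. Median-ratio scaling kept 40 calls and quantile normalization 41. The pseudocount of 5 kept 20, since it shrinks the fold change of low genes below the threshold, and the pseudocount of 0.1 kept 48.

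For the 2-cell stage against the oocyte, where 4 members were called, the count was 1 on the RPKM scale, 1 with a pseudocount of 5, 2 with a filter of 5 RPM, 0 with median-ratio scaling and 0 with quantile normalization, and 2 to 4 with 1 library left out. For the 8-cell stage against the 4-cell stage it was 1 without 16-cell C and morula C, against 0. For the 16-cell stage against the 8-cell stage, with 16 calls, it was 5 on the RPKM scale, 7 with a pseudocount of 5 and 9 with a filter of 5 RPM, and 13 to 17 with 1 library left out. For morulae against the 16-cell stage, with 3 calls, it was 1 on the RPKM scale, 8 with a pseudocount of 0.1, 1 with a pseudocount of 5 and 6 without 16-cell C and morula C, and 1 to 6 with 1 library left out. For blastocysts against morulae, with 9 calls, it was 2 on the RPKM scale, 17 with a pseudocount of 0.1, 3 with a pseudocount of 5 and 4 with a filter of 5 RPM. For blastocysts against oocytes, with 17 calls, it was 3 on the RPKM scale, 8 with a pseudocount of 5 and 11 with a filter of 5 RPM. Of the 31 members that differed across stages, 8 did on the RPKM scale and 13 with a filter of 5 RPM. The RPKM scale tested 9 members and the filter of 5 RPM 13, so fewer could be called. The cause of the other shifts was not tested.

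Scaling also moved the direction of calls over all genes. The share higher among called genes was 96.7% at the 2-cell stage against the oocyte, 36.8% with median-ratio scaling and 50.6% with quantile normalization. It was 33.5%, 53.2% and 47.6% at the 16-cell stage, 55.4%, 39.9% and 54.7% in morulae, 21.6%, 52.9% and 50.6% in blastocysts against morulae, and 36.2%, 45.8% and 49.1% in blastocysts against oocytes. At 3 reads a library, levels under 0.0450 to 0.125 RPM could not be told from 0.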
